A study of Mus musculus with 42 samples.

Results

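Gene expression in the inner cell mass of female mouse blastocysts at E3.5 was compared with that in female morulae, gene by gene and on each parental allele. A gene entered the comparison when its total, the sum of both alleles, was at least 5 FPKM (sequenced fragments per kilobase of transcript, relative to all mapped fragments) in 1 of the stages and above 0 in both. This left 6143 of the 24083 genes of the stage table. Of the others, 10080 were listed at 0 in both stages, 7817 stayed under 5 FPKM, 22 reached 5 FPKM in the inner cell mass but were listed at 0 in morula, and 21 were the reverse. Just inside the threshold lay Krt13, at 5.007 FPKM in the inner cell mass, and just outside it Ak7, at 4.999 FPKM.

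The morula column pooled 3 samples and the inner cell mass column 2. All were wild type female embryos or embryo parts of the strain C57BL/6N X PWK/PhJ, with C57BL/6N as the mother and PWK/PhJ as the father, prepared by the Smart-seq2 method from polyadenylated RNA. The cross was made in 1 direction, so that strain and parent of origin cannot be told apart. Of the 42 samples of the series, 3 other pooled columns are set beside the comparison: 8-cell embryos (3 samples), E3.5 trophectoderm (3) and control female morulae (3), also wild type and of the same strain, from a table that was normalized separately. The shares of control male morulae (4 samples) are used only to check which X-linked values can be read as paternal.

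Each group had 1 value per allele and gene, pooled by the authors. Spread between embryos could not be computed, no difference was tested and no p-value is given. A difference is described by its size, and a gene is called higher or lower only when its log2 ratio of FPKM plus 1, inner cell mass over morula, was at least 1 in either direction (2-fold). The totals of all genes summed to 399289 FPKM in morula and 394370 in the inner cell mass. Read depth was unknown. Y-linked genes were at 0 in both columns (0 of 46).

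The morula is a compacted ball of cells that have not yet separated into lineages. Cells left on the outside become trophectoderm, an epithelium that pumps fluid into the blastocyst cavity, and cells inside form the inner cell mass. Within the inner cell mass, epiblast precursors make Fgf4, and the Fgf receptor and Erk signal in their neighbours favours primitive endoderm. In female mouse embryos the paternal X chromosome is silenced from early cleavage under the noncoding RNA Xist, and cells that become epiblast later reactivate it.

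Of the 6143 genes, 1104 (18.0%) were 2-fold higher in the inner cell mass and 620 (10.1%) 2-fold lower, and the median log2 ratio was 0.14. Measured against the control female morulae, 1648 of 6101 genes (27%) were higher and 504 (8.26%) lower, with a median of 0.44. The morula columns themselves differed by 2-fold for 27.6% of 5727 genes, 539 (9.41%) higher in the control female morulae and 1042 (18.2%) lower. A 2-fold difference between pooled columns was thus about as frequent between 2 sets of morulae as between morula and inner cell mass, for which it was 28.1% in all. Past 2-fold against both morula columns, in the same direction, were 662 genes (10.8% of 6116) above and 224 (3.66%) below. Values from the control female morulae are therefore given beside the main ones. Counts of list members past 2-fold are to be read beside the 18.0% of all genes that were higher and the 10.1% that were lower.

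**Figure D1:**
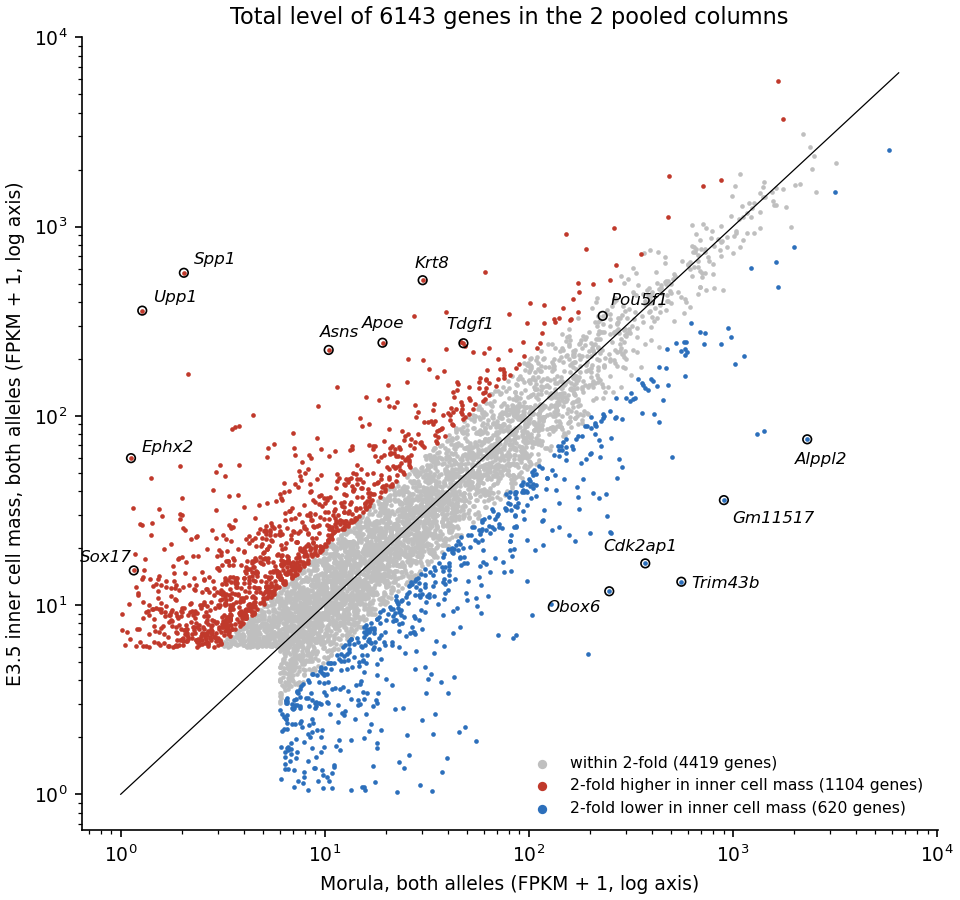
Total FPKM plus 1 of both alleles in morula (x axis) and E3.5 inner cell mass (y axis), both on log axes. Each point is 1 of 6143 genes, the line marks equal levels, and colours mark the 1104 genes that were 2-fold higher and the 620 that were 2-fold lower in the inner cell mass. Upp1 and Spp1 stand farthest above the line and Trim43b and Alppl2 among the farthest below.

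Upp1, the uridine phosphorylase that breaks uridine down to uracil, was at 0.275 FPKM in morula, 11.2 in control female morula, 359 in the inner cell mass and 3.69 in trophectoderm (log2 ratio 8.14). Spp1, the secreted phosphoprotein osteopontin, was at 1.04 FPKM in morula, 30.9 in control female morula, 569 in the inner cell mass and 81.1 in trophectoderm. Both genes were far above both morula columns.

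Ephx2, an epoxide hydrolase, was at 0.123 FPKM in morula, 0.252 in control female morula, 58.7 in the inner cell mass and 0.107 in trophectoderm. Asns, which makes asparagine, was at 9.45 FPKM in morula, 14.7 in control female morula and 222 in the inner cell mass. The other genes among the 15 with the highest ratios were BC053393, Serpinb1a, Serpinh1, Dppa1, Tspan8, Lgals1, Sparc, Fam213b, Ndrg1, Plk2 and Slc22a5. In trophectoderm BC053393 reached 1383 FPKM, Tspan8 1256 and Lgals1 1215, so that several of these genes were higher there than in the inner cell mass. Plk2, a kinase of the polo family, was at 0.549 FPKM in morula and 31.2 in the inner cell mass but at 53.5 in control female morula, and its direction depended on which morula column was used. Dppa1 was 2-fold higher against the stage morula alone, with 28.8 FPKM in control female morula and 53.3 in the inner cell mass.

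The genes with the lowest ratios included transcripts that were already abundant at the 8-cell stage. Trim43b, a gene of the cleavage-stage Trim43 family, was at 864 FPKM in 8-cell embryos, 558 in morula, 136 in control female morula and 12.3 in the inner cell mass (log2 ratio -5.40). Obox6, of the homeobox family named oocyte-specific, was at 854 FPKM in 8-cell embryos, 247 in morula, 34.3 in control female morula and 10.8 in the inner cell mass. Its paternal share was 42.6% in 8-cell embryos and 53.2% in morula, so its RNA there was not maternal alone. Trim43b and Obox6 were both highest at the 8-cell stage and lower at each later one.

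Alppl2, an alkaline phosphatase of the embryo, was at 560 FPKM in 8-cell embryos, 2313 in morula, 585 in control female morula and 74.1 in the inner cell mass. Its morula level was above that of the 8-cell column, unlike those of Trim43b and Obox6. Gm11517 (903 to 34.9 FPKM) and Cdk2ap1, a binding partner of the cell cycle kinase Cdk2 (371 to 15.6), were also lower. The rest of the 15 lowest were Trim43c, Prl3b1, Ppt2, Sp110, Tnfsf13b, Nppb, 4930550L24Rik, Gata1, Cthrc1 and Hcrt. Against the control female morulae each of the 15 was 2-fold lower as well.

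Among 22 pluripotency genes, 7 were higher and 2 lower (median log2 ratio 0.55, against 0.14 over all genes). The core factors were already expressed in morula. Nanog was at 121 FPKM in morula, 170 in control female morula and 157 in the inner cell mass, and Pou5f1 at 229, 137 and 336. Neither passed 2-fold against the stage morula. Against the control female morulae Pou5f1 was 2-fold higher, and Nanog was slightly lower. Sox2, the partner of Pou5f1 on DNA, was at 2.27 FPKM in morula, 0.538 in control female morula and 6.89 in the inner cell mass. The genes that passed 2-fold besides Sox2 were Fgf4, Etv5, Tdgf1, Utf1, Dppa5a and Prdm14.

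Tdgf1, a co-receptor for Nodal, was at 46.8 FPKM in morula, 15.97 in control female morula, 241 in the inner cell mass and 0.946 in trophectoderm. Utf1, a chromatin protein of undifferentiated cells, was at 37.4 FPKM in morula, 32.6 in control female morula, 171 in the inner cell mass and 13.1 in trophectoderm. Prdm14, a repressor that holds cells in the naive state, was at 1.62 and 7.11 FPKM in morula and inner cell mass. Each of these 3 genes was lower in trophectoderm than in the inner cell mass. Fbxo15, a target of Pou5f1 and Sox2, was lower in the inner cell mass (1665 to 481 FPKM), as was the nuclear receptor Nr5a2 (21.0 to 7.30), though in neither case by 2-fold against the control female morulae. Zfp42 was listed at 0 in both stages. As to the label of the column, Fgf4, Etv5 and Tdgf1 were at 25 to 241 FPKM in the inner cell mass and at 0 to 0.946 FPKM in trophectoderm. Not every member of the list differed in this way. Klf5 was at 214 FPKM in the inner cell mass and 269 in trophectoderm, and Dppa5a at 5906 and 5715. Summed over the 24 genes of the list, the level was 9448 FPKM in the inner cell mass and 7002 in trophectoderm.

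Of the Fgf and Erk genes, 6 of 10 were higher and 1 was lower, with a median of 1.34. The ligand Fgf4 was at 2.48 FPKM in morula, 1.20 in control female morula and 25 in the inner cell mass, and was listed at 0 in trophectoderm. Fgfr1, a receptor of epiblast and primitive endoderm, was at 8.14 and 17.4 FPKM in morula and inner cell mass (log2 ratio 1.01). Fgfr2, the other main receptor, stayed at 9.07 and 8.04 FPKM.

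Among targets and feedback inhibitors of the Erk pathway, Etv5, a transcription factor induced by Fgf, was at 6.44 FPKM in morula, 2.84 in control female morula, 49.99 in the inner cell mass and 0.0494 in trophectoderm. Dusp6, the phosphatase that turns Erk off, was at 2.47, 2.07 and 24.6 FPKM in morula, control female morula and inner cell mass, and at 36.0 in trophectoderm. Spry4, an inhibitor, and the immediate early gene Fos were the other members past 2-fold higher, at 5.13 and 8.50 FPKM in the inner cell mass. Sos1, the exchange factor that activates Ras, was the member that was lower (5.29 to 1.56 FPKM). At 2.55 FPKM in control female morula, it was not 2-fold lower against that column.

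Of 8 Nodal and Bmp genes, 3 were higher and none lower (median 0.82). They were Tdgf1, the Nodal signal cofactor Foxh1 (8.90 to 35.8 FPKM) and the Bmp target Id2 (14.9 to 124). Past 2-fold above both morula columns were 2 members. Id2, which is also on the trophectoderm list, was at 78.9 FPKM in control female morula and 1068 in trophectoderm. Against the control female morulae it was not 2-fold higher. Gdf3, a Nodal-related ligand, was at 33.4 FPKM in morula and 66.7 in the inner cell mass, just short of 2-fold. Id3 was at 285 FPKM in morula, 34.5 in control female morula and 211 in the inner cell mass. Of the 12 formative epiblast genes, 3 entered the comparison and none passed 2-fold against the stage morula. Otx2 and Dnmt3b were 2-fold higher against the control female morulae, and Pim2 was not.

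Among 13 primitive endoderm genes, 9 were higher and 1 lower, and the median was 2.201, against 0.21 with the control female morulae as reference. Transcription factors first: Sox17 was at 0.159 FPKM in morula, 0.772 in control female morula, 14.2 in the inner cell mass and 0.0953 in trophectoderm. Hnf4a was at 0.0769, 0.918, 6.198 and 0.420 FPKM in the same columns. Gata6, which starts the lineage, was at 19.2 FPKM in morula, 38.3 in control female morula and 35.4 in the inner cell mass, short of 2-fold. The early factor was thus present in both morula columns, while the later ones were near 0 there.

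Pdgfra, the receptor that marks primitive endoderm, was at 0.965 FPKM in morula, 0.681 in control female morula, 6.51 in the inner cell mass and 0.0192 in trophectoderm. Serpinh1, a collagen chaperone, was at 0.150, 2.23, 31.6 and 0.104 FPKM in these columns. Sox17, Hnf4a, Pdgfra and Serpinh1 were at low levels in every column but that of the inner cell mass. The other members that were 2-fold higher were not so against the control female morulae. Apoe, which carries lipid, was at 18.2 FPKM in morula, 222 in control female morula and 242 in the inner cell mass. Col4a1 was at 1.49, 9.05 and 10.7 FPKM. Amn, an uptake receptor subunit, was lower (5.41 to 0.441 FPKM).

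In the matrix list 8 of 13 genes were higher and 2 lower, with a median of 1.62, and 4 of the 13 are also on the endoderm list. Sparc, a collagen-binding secreted protein, was at 2.81 FPKM in morula, 7.28 in control female morula, 87.2 in the inner cell mass and 6.09 in trophectoderm. Fn1, fibronectin, was at 0.833, 1.49, 12.4 and 0.106 FPKM. Both were higher in the inner cell mass than in any of the other 3 columns. The laminin chain Lamb1 was at 2.55 FPKM in morula, 8.41 in control female morula, 16.6 in the inner cell mass and 10.4 in trophectoderm. Itgb5 was lower against both morula columns (8.60, 17.8 and 3.72 FPKM). Nid1, a basement membrane protein, was lower against the stage morula alone, at 28.1, 7.65 and 12.1 FPKM.

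**Figure D2:**
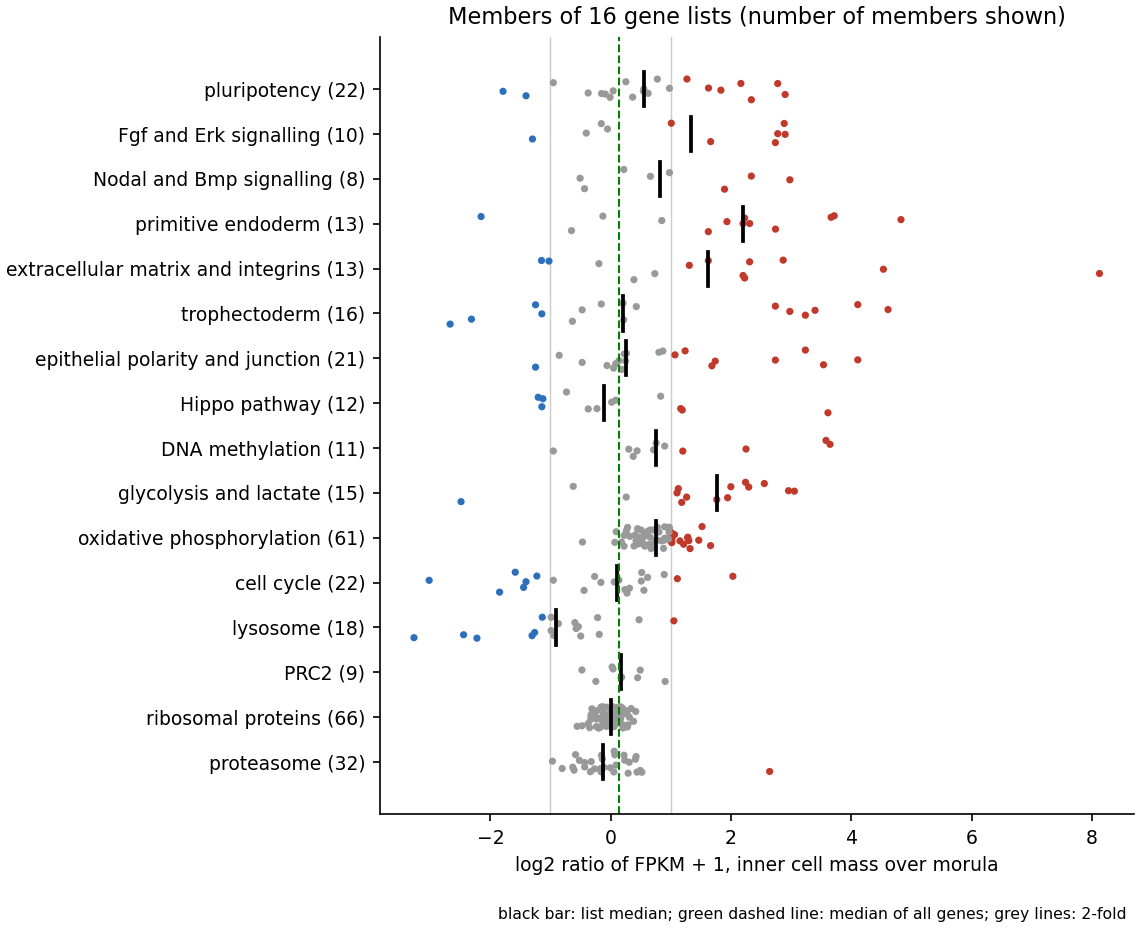
Log2 ratio of FPKM plus 1, inner cell mass over morula, for each member of 16 gene lists (x axis), with the number of members beside each list name. Red points are 2-fold higher, blue points 2-fold lower, black bars are list medians and the green dashed line is the median of all genes, 0.14. Primitive endoderm (2.201), glycolysis (1.76) and matrix (1.62) have the highest medians shown, and the lysosome list (-0.91) the lowest.

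Trophectoderm genes split. Of 16, 6 were higher in the inner cell mass than in morula, 4 were lower, and the median was 0.21. Krt8, a keratin of simple epithelium, was at 29.2 FPKM in morula, 182 in control female morula, 520 in the inner cell mass and 1502 in trophectoderm. Its partner Krt18 was at 59.8, 367, 572 and 1716 FPKM. Gata2 was at 0.187, 0.0879, 11.5 and 109 FPKM, and Tspan8 at 2.49, 7.57, 84.4 and 1256. Each was higher in trophectoderm than in the inner cell mass.

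Against the stage morula, the trophectoderm regulators near the top of the lineage differed less. Cdx2 was at 10.4 FPKM in morula, 8.19 in control female morula, 12.2 in the inner cell mass and 35.4 in trophectoderm. Eomes was at 7.06, 2.35, 8.31 and 101 FPKM in these columns. Against the control female morulae Eomes was 2-fold higher (log2 ratio 1.48), close to Krt8 (1.51) and above Krt18 (0.64), while Cdx2 was not. Hand1 (37.4 to 5.04 FPKM), Slc39a2, the water channel Aqp3 and Tead4 were lower in the inner cell mass, though not by 2-fold against the control female morulae. Summed over the 24 genes of the list, the level was 788 FPKM in morula, 1351 in control female morula, 1766 in the inner cell mass and 7200 in trophectoderm, and 2 genes were at 0 in both stages compared. The part of trophectoderm cells in the inner cell mass values was not tested. In bulk samples, fewer cells of a type and less RNA per cell cannot be told apart.

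Epithelial polarity and junction genes overlapped with this list: 8 of 21 were higher, 1 was lower, and the median was 0.26. Ezr, which links membrane to actin, was at 4.203 FPKM in morula, 20.3 in control female morula, 59.5 in the inner cell mass and 13.8 in trophectoderm. Unlike the keratins, Ezr was higher in the inner cell mass than in trophectoderm. In the Hippo pathway, which restricts the trophectoderm program to outer cells, 3 of 12 genes were higher and 3 lower, with a median of -0.10 that became 0.90 against the control female morulae. Ctgf, a target of the Yap cofactor, was at 8.22 FPKM in morula, 34.3 in control female morula, 112 in the inner cell mass and 8.80 in trophectoderm. Tead4, the DNA-binding partner of Yap, was lower (45.2 to 19.9 FPKM).

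Markers of cells that could come along with the embryos were low. None of 10 cumulus and granulosa genes entered the comparison, and their summed level was 2.27 FPKM in morula and 0 in the inner cell mass. The blood and macrophage list (10 genes) summed to 16.0 and 3.06 FPKM, and Lyz2 was the member that entered, at 12.4 FPKM in morula, 0.0517 in the inner cell mass and 0 in control female morula. Of 8 oviduct and uterine genes, Wfdc2 entered (3.56 and 7.97 FPKM).

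Glycolysis was the metabolic list with the largest share of members past 2-fold: 12 of 15 were higher, 1 was lower, and the median was 1.76. This pathway splits glucose into pyruvate and lactate, and embryos are known to use it more as the blastocyst forms. The promoters of 3 of these genes are shown because most members of the list were higher together: each is the 250 bases before a RefSeq start site (build GRCm38.p6), 5′ to 3′ on the strand of the gene. Capitals mark ACGTG, the core of the hypoxia response element, or CACGT, the same letters read on the other strand.
Pkm: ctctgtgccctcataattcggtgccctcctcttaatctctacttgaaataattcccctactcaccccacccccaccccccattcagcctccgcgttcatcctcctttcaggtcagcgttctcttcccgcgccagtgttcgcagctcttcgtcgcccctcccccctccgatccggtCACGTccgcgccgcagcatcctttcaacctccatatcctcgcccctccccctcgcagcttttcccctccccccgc
Slc2a1: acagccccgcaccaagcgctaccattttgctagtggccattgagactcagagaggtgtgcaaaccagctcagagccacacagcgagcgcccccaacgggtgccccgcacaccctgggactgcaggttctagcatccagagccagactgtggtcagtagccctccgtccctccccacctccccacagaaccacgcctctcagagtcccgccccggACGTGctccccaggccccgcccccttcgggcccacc
Pgk1: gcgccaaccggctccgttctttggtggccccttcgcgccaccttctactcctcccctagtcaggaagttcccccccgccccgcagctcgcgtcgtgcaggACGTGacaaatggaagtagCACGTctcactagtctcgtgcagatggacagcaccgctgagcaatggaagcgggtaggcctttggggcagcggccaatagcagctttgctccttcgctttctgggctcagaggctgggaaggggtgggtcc

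The Pkm sequence lies at chr9:59656977-59657226, that of Slc2a1 at chr4:119108495-119108744 and that of Pgk1 at chrX:106186850-106187099, all on the plus strand. The motif was chosen after the expression values were seen. It was found upstream of at least 1 start site for 6 of the 11 higher glycolysis genes matched to the promoter table (Hk2, Ldha, Pgk1, Pkm, Slc16a1 and Slc2a1). Among all 14 matched glycolysis genes of the comparison, higher or not, 7 (50%) held the motif, a similar share. Of the 4734 genes of the whole comparison that were matched, 27.6% held it at 1 start site or more, and so did 16.6% of all 32851 start sites. The promoters printed are the 3 with the highest level in the inner cell mass among those that hold the motif. A match is a description of the letters, with no measurement of binding.

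Glucose uptake and the steps of the pathway were represented among the higher genes. The glucose carriers Slc2a1 (18.4 to 41.3 FPKM) and Slc2a3 (19.1 to 42.1) were just past 2-fold, but not against control female morula, where they were at 27.7 and 23.2 FPKM. Tpi1, which interconverts the 3-carbon sugars, was at 8.16 FPKM in morula, 7.69 in control female morula, 75.1 in the inner cell mass and 189 in trophectoderm. Pgk1, which makes the first ATP, was at 8.55, 3.49, 37.2 and 81.6 FPKM. Trophectoderm was above the inner cell mass for both.

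Pkm, pyruvate kinase, was at 24.6 FPKM in morula, 65.7 in control female morula, 198 in the inner cell mass and 121 in trophectoderm. Ldha, which makes lactate, was at 0.837 FPKM in morula but at 10.2 in control female morula, against 9.80 in the inner cell mass and 0.348 in trophectoderm. With the control female morulae as reference it was therefore not higher. Past 2-fold above both morula columns were 7 genes of the list. Hexokinases went in opposite directions: Hk2 was at 5.09 and 19.7 FPKM in morula and inner cell mass, and Hk1 at 13.02 and 1.501. The printed Gapdh level, 1.04 and 8.67 FPKM, is low for this gene, which has many processed copies, and is uncertain.

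Respiratory chain genes differed by less. Of 61 oxidative phosphorylation genes, 14 (23.0%) were higher, against 18.0% of all genes, and none was lower, with a median of 0.75. Atp5g3, a subunit of the ATP synthase ring, was at 96.9 FPKM in morula, 133 in control female morula and 309 in the inner cell mass. Against the control female morulae the median of the list was 0.12. Past 2-fold above both morula columns were 2 members, a smaller part than the 10.8% of all genes. Cytosolic ribosomal protein genes (66) had none past 2-fold and a median of 0.01. In the proteasome list 1 of 32 was higher, Psmb9, an inducible catalytic subunit (5.31 to 38.4 FPKM), and none was lower.

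Lysosome genes were the list with the largest share of lower members among those with more than 12 measured: 6 of 18 were lower, 1 was higher, and the median was -0.91. The 6 lower genes made up 33.3% of the list, against 10.1% of all genes. The protease Ctsh was at 16.9 FPKM in morula, 16.1 in control female morula, 0.860 in the inner cell mass and 4.19 in trophectoderm. Grn, a lysosomal growth factor precursor, was at 432, 210, 91.8 and 97.4 FPKM, and Ctsd at 361, 356, 145 and 200. In these 3 genes both morula columns were above both blastocyst columns. Ctsz and Npc2 were also lower against both morula columns. Ctsc was lower against the stage morula alone (317 to 132 FPKM, with 89.4 in control female morula). Hexa, a subunit of hexosaminidase, was higher (85.3 to 178 FPKM).

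Amino acid transporters (2 of 7 higher, 2 lower) and cholesterol synthesis genes (4 of 13 higher, 1 lower) showed no common direction against the stage morula. Against the control female morulae the median of the cholesterol list was -0.72. Fdft1, the squalene synthase, was lower against both morula columns, at 83.3 FPKM in morula, 120 in control female morula and 24.7 in the inner cell mass. The stress and immediate early list had 5 of 9 higher and a median of 1.26, but a median of -0.18 against the control female morulae. Mt1, a metal-binding protein, was at 488 FPKM in morula, 6085 in control female morula and 1848 in the inner cell mass.

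Cell cycle genes were lower in 6 of 22 cases (27.3%, against 10.1% of all genes) and higher in 2 (9.09%, against 18.0%), with a median of 0.10. Ccne1, the cyclin of the entry into S phase, was at 239 FPKM in morula, 84.6 in control female morula and 28.7 in the inner cell mass. Cdc20, an activator of the mitotic ubiquitin ligase, was at 582, 435 and 161 FPKM. Both were lower against both morula columns. Cdk1 (264 to 96.3 FPKM) and Ccna2 (248 to 105) were lower against the stage morula but stood at 52.6 and 81.5 FPKM in control female morula. Cdk2 was higher, at 26.7, 29.3 and 112 FPKM. With the control female morulae as reference the median of the list was 0.77, and most members past 2-fold were higher: Ccnd3, Cdk2, Bub1, Top2a and Mcm2 to Mcm6, with Ccne1 and Cdc20 lower. Of 10 p53 and apoptosis genes, the proapoptotic Bid was the only one past 2-fold (42.1 to 3.18 FPKM, with 11.7 in control female morula). Against the control female morulae, however, the median of this list was -1.001. The cell cycle inhibitor Cdkn1a, a p53 target, was at 13.5 FPKM in morula, 231 in control female morula and 15.5 in the inner cell mass. Ccng1, another p53 target, was at 12.1, 152 and 16.3 FPKM, and Mdm2 and Pmaip1 were also 2-fold lower against that column alone.

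Among 11 DNA methylation and demethylation genes, 4 were higher and none lower (median 0.76). Uhrf1, which brings Dnmt1 to newly replicated DNA, was at 4.64 FPKM in morula, 5.57 in control female morula, 69.7 in the inner cell mass and 11.8 in trophectoderm. Tet1, a dioxygenase of methylcytosine, was at 2.41, 1.05, 15.2 and 1.53 FPKM in these columns. Tdg, the glycosylase that acts after the Tet enzymes, was at 0.757, 4.27, 20.02 and 26.4 FPKM. Uhrf1 and Tet1 were highest in the inner cell mass among these columns, Tdg in trophectoderm. Dnmt1 (4.32 to 5.90 FPKM) and Dnmt3b (15.02 to 20.7) were within 2-fold of the stage morula. Dnmt3b was at 5.87 FPKM in control female morula and was 2-fold higher against that column. The fourth higher gene was Zfp57, which protects imprints (4.21 to 10.98 FPKM).

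None of the 9 PRC2 genes passed 2-fold, with Eed, a core subunit, at 66.0 and 90.5 FPKM. In PRC1, 2 of 7 were lower, Pcgf5 (54.2 to 9.94 FPKM) and Kdm2b. Of 10 cohesin genes the X-linked Smc1a was higher (17.7 to 36.4 FPKM). Chaperones gave 1 higher and 2 lower of 17, the latter including Hspa8, the constitutive cytosolic chaperone, at 5794 FPKM in morula, 2931 in control female morula and 2524 in the inner cell mass. Of the 6 oocyte genes that entered, Ooep and Khdc3 were higher, and Obox6 and Padi6 lower. The single gene of the 2-cell list, Sp110, was at 36.5 FPKM in morula and 0.316 in the inner cell mass.

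**Figure D3:**
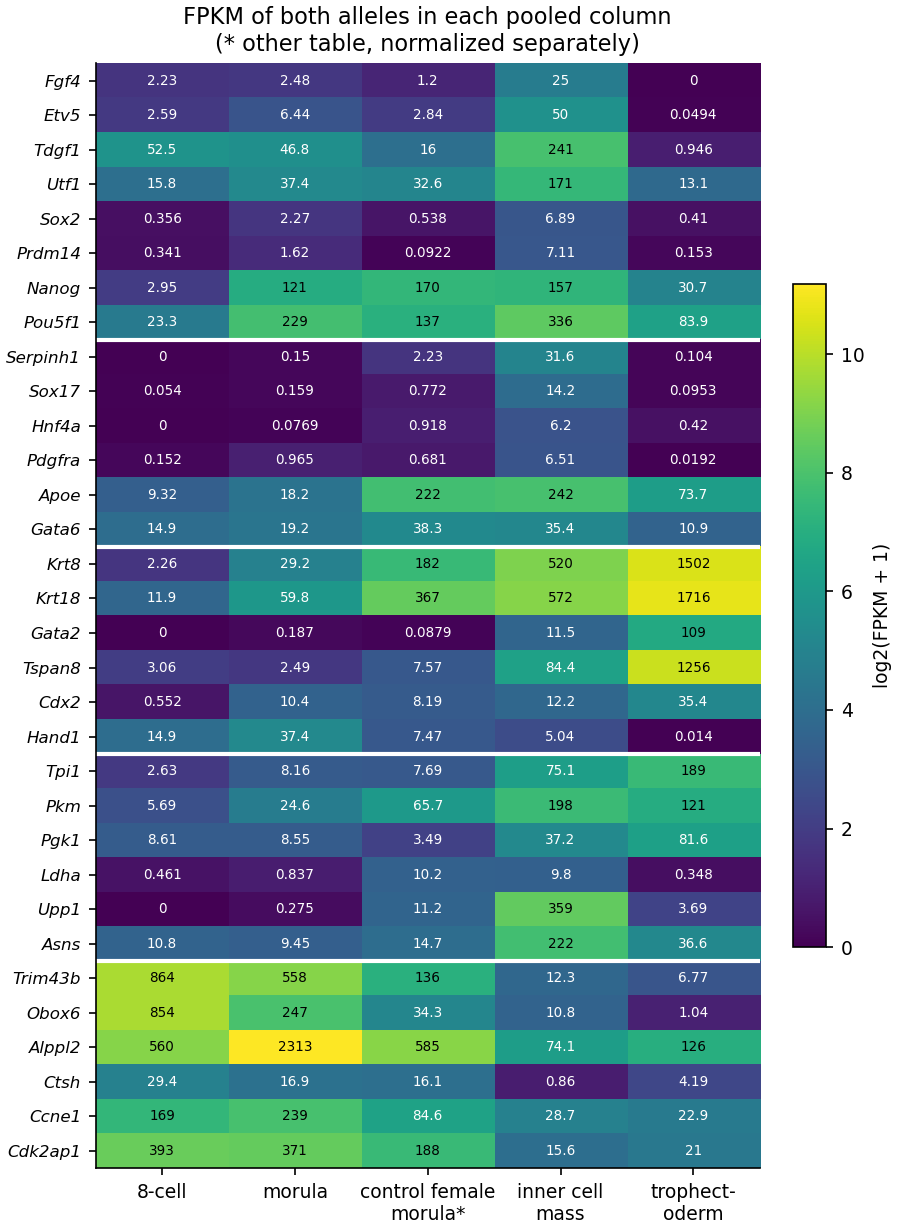
Total FPKM of 32 genes (rows) in the pooled columns of 8-cell embryos, morula, control female morula, inner cell mass and trophectoderm, with colour on a log2(FPKM + 1) scale and the FPKM printed in each cell. Fgf4, Sox17 and Pdgfra are highest in the inner cell mass, Krt8 and Tspan8 in trophectoderm, and Apoe and Ldha are at similar levels in control female morula and inner cell mass.

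The paternal share, paternal FPKM over the sum of both alleles, was compared for genes of the comparison with at least 1 FPKM in both stages. Over 183 X-linked genes its median was 26.9% in morula and 13.9% in the inner cell mass. Gene by gene the median change was -11.045 percentage points, with 151 genes (82.5%) lower and 27 (14.8%) higher. Over 5762 autosomal genes the medians were 47.9% and 49.1%, and the median change was 1.02 points, with 44.4% of the genes lower and 55.3% higher.

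A fall of at least 20 points was seen in 43 X-linked genes (23.5%) and a rise of that size in 4 (2.19%), against 224 (3.89%) and 309 (5.36%) of the autosomal genes. With the control female morulae as reference, 58 X-linked genes were lower by 20 points and the median change was -13.2 points. Between the morula columns, the X-linked share differed by a median of 1.52 points, with 12 of 172 genes (6.98%) lower and 16 (9.30%) higher by 20 points in the control female column (3.39% and 6.30% of autosomal genes). The median X-linked difference between the stages was thus larger than that between the morula columns. Over 165 X-linked genes with 1 FPKM in all of 5 columns, the median share was 41.4% in 8-cell embryos, 28.0% in morula, 31.6% in control female morula, 15.5% in the inner cell mass and 9.22% in trophectoderm. The inner cell mass was below both morula columns and above trophectoderm.

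**Figure D4:**
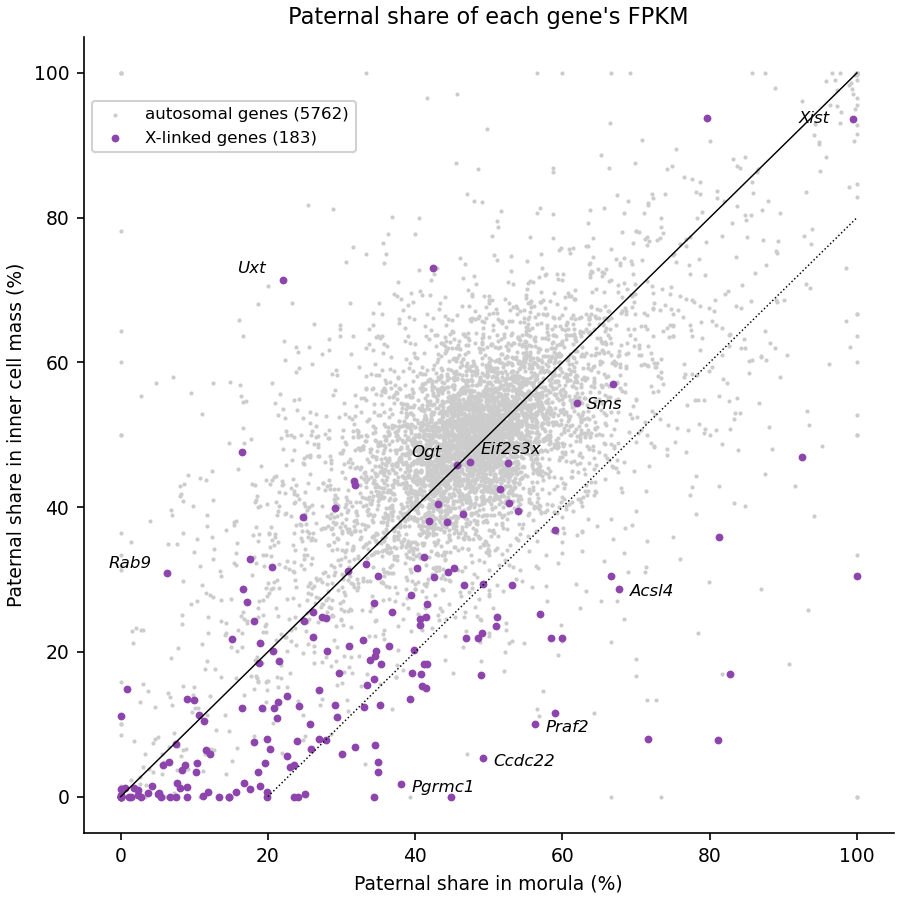
Paternal share of each gene in morula (x axis, %) and in inner cell mass (y axis, %) for 183 X-linked genes (purple) and 5762 autosomal genes (grey). The solid line marks equal shares and the dotted line a fall of 20 points. Most X-linked genes lie under the solid line, 43 of them on or under the dotted one, while the autosomal genes lie around 50%.

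The alleles of X-linked genes differed in direction. The median log2 ratio of paternal FPKM plus 1 was -0.49 and that of maternal FPKM plus 1 was 0.24, against 0.15 and 0.09 over autosomal genes. On the paternal allele 59 X-linked genes (32.2%) were 2-fold lower and 9 (4.92%) higher, and on the maternal allele 12 (6.56%) were lower and 45 (24.6%) higher. Among autosomal genes 8.73% of paternal and 9.72% of maternal values were 2-fold lower, and 16.2% and 14.8% higher. In total level, 21.9% of the X-linked genes were higher and 9.29% lower, against 16.4% and 9.34% of the autosomal ones. The paternal allele was lower by 2-fold with the maternal allele within 2-fold in 47 genes. In 38 other genes the maternal allele was 2-fold higher and the paternal within 2-fold. With 1 FPKM added, a paternal value under 1 FPKM in morula cannot be called 2-fold lower. Some of the 38 genes, such as Msn, Xlr3a and Pgk1, had such a value, so their class does not show a steady paternal allele.

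Aifm1, a mitochondrial flavoprotein, is of the first kind in its paternal allele: 8.25 FPKM in morula and 1.03 in the inner cell mass, while the maternal allele stood at 15.3 and 29.5. Lamp2, a lysosomal membrane protein, had paternal values of 18.4 and 2.37 FPKM with maternal values of 60.1 and 51.5. Cox7b, a subunit of cytochrome oxidase, is of the second kind: its paternal allele stayed at 19 and 17.1 FPKM while its maternal allele went from 60.5 to 204. These kinds are set against the stage morula. In control female morula Cox7b was at 158 FPKM (26.8% paternal), Aifm1 at 11.7 (32.4%) and Lamp2 at 52.1 (24.0%). Against that column Cox7b would be of the first kind and Aifm1 of neither, while Lamp2 would remain of the first. Pgk1 had 7.78 maternal and 0.770 paternal FPKM in morula, and 37.2 and 0 in the inner cell mass, so that the higher total described above was maternal.

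**Figure D5:**
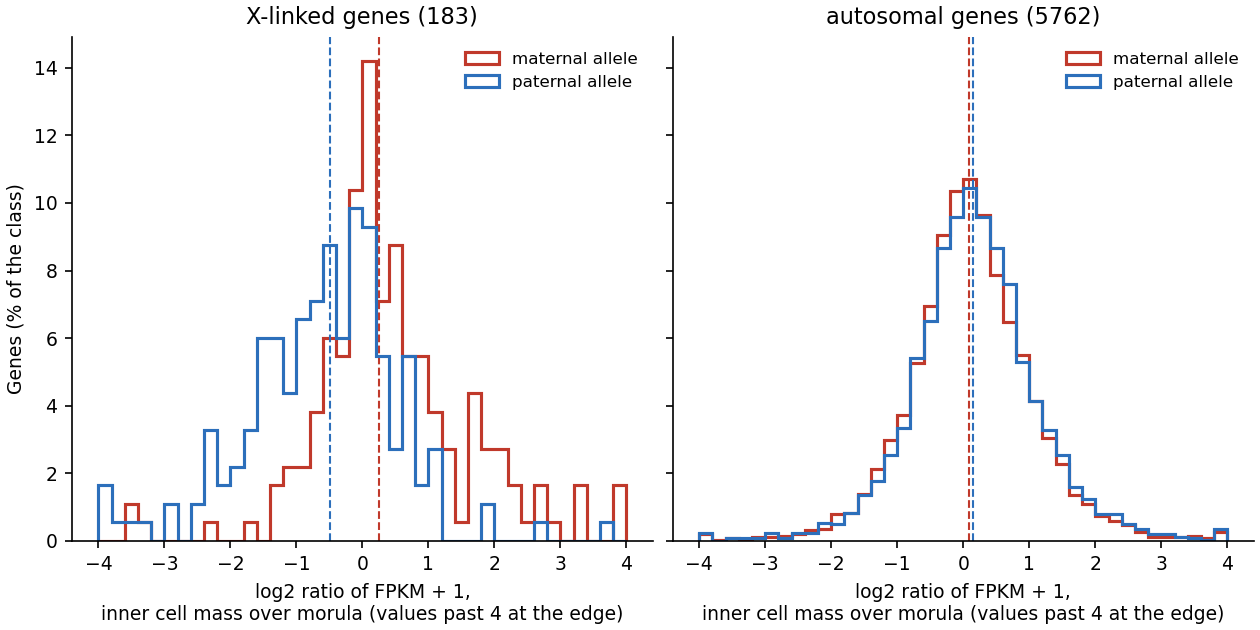
Distribution of log2 ratios of FPKM plus 1, inner cell mass over morula (x axis), on the maternal (red) and paternal (blue) allele, for 183 X-linked genes (left) and 5762 autosomal genes (right), as a percentage of the genes of each class (y axis). Dashed lines are medians, which lie at 0.24 and -0.49 for the maternal and paternal allele on the X and at 0.09 and 0.15 on autosomes.

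Genes with a low share in morula mostly had a low share in the inner cell mass. Of the 19 X-linked genes at a share of 5% or less in morula, 17 were also there in the inner cell mass. Of 62 genes at 20 to 40% in morula, 38 were at 20% or less, and of 42 genes at 40 to 60%, 10 were. Genes at 20% or less went from 67 to 110 in all, and those at 5% or less from 19 to 55. The change followed no order by level: in 3 classes of 61 genes, from the lowest to the highest level in the inner cell mass, the median change was -11.6, -7.69 and -11.4 points.

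Along the chromosome the change was uneven. When the 183 genes were split in gene order into 5 groups, the first, from Ccdc22 to Pgrmc1, had a median change of -25.3 points, and 20 of its 36 genes were lower by at least 20. The following groups had median changes of -12.1, -4.59, -9 and -7.47 points. The first group also had the highest median share in morula, 45.7%, against 19.2 to 25.7% in the others. Neighbouring genes share a chromosome and are not independent measurements.

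Among X-linked genes with at least 5 FPKM in both stages, the largest falls were those of Tsix, Pim2, Praf2, 1810030O07Rik, Ccdc22, Acsl4, Plp2, Porcn, Pgrmc1 and Stag2. Pgrmc1, a heme-binding membrane protein, went from 38.1% in morula (33.5% in control female morula) to 1.79%, close to the 1.12% of trophectoderm. Ccdc22, of an endosomal sorting complex, went from 49.2% (50.8%) to 5.38%. Plp2, a membrane protein, went from 60% (59.97%) to 22.0%, and Stag2, a cohesin subunit, from 48.9% (52.9%) to 16.8%. In these 4 genes the morula columns lay within 5 points of each other. Tsix, the antisense partner of Xist, was listed at 100% and 30.4%. The libraries carry no strand, so its reads and those of Xist cannot be told apart, and the value in control female morula was 53.3%.

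Rises were fewer. Uxt (22.0 to 71.4%) and Gm5643 (42.4 to 73.1%) had the largest, yet stood at 92.3% and 80.7% in control female morula, and were lower than there. Gm5643 was also at 75.03% in control male morulae, which carry no paternal X, so its value cannot be read as paternal. Rab9, a small GTPase, went from 6.25% in morula and 8.98% in control female morula to 31.0%.

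Xist itself was at 20.6 FPKM in morula, 28.6 in control female morula, 10.96 in the inner cell mass and 15.2 in trophectoderm, with a paternal share of 99.5%, 68.0%, 93.6% and 95.6%. Tsix, whose reads cannot be told from those of Xist, was listed at 38.9 FPKM in morula and 34.9 in the inner cell mass. The level and share of Xist are therefore uncertain as well. The neighbour Rlim, whose protein is a ubiquitin ligase upstream of Xist, was at 0.569% paternal in morula and 1.19% in the inner cell mass. On the other side of Xist, Ogt stayed at 45.7 and 45.8%, and Rps4x went from 51.5 to 42.5%. Genes near Xist thus included both the lowest shares and some of the highest.

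At 40% or more were 54 X-linked genes in morula and 16 in the inner cell mass, and 12 were in both. They included Xist, Sms, Eif2s3x, Rbm3, Ogt, Rps4x, Kdm5c and Atp6ap2. E530001F21Rik had the highest share in the inner cell mass, 93.8%, but was at 83.5% in control male morulae and cannot be read as paternal. Sms, spermine synthase, was at 61.9% in morula and 54.5% in the inner cell mass, and Eif2s3x, a translation initiation factor, at 47.4 and 46.2%. Kdm5c, a histone demethylase, was at 52.8 and 40.5%, but at 38.3% in control female morula. Rbm3 and Atp6ap2 were also under 40% in that column, at 36.1 and 29.2%, while Xist, Sms, Eif2s3x, Ogt and Rps4x were above it. Over 8 genes of a list of known escape genes, with at least 1 FPKM in both stages, the median share was 47.0% in morula, 39.8% in the inner cell mass and 26.8% in trophectoderm. Ddx3x, an RNA helicase of that list, was at 33.9 and 18.9%.

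Autosomal shares differed in both directions, and the most extreme ones had an allele at 0. Xbp1 was listed at 100% in morula and 0% in the inner cell mass, with totals of 21.0 and 38.2 FPKM, and Traf4 at 0 and 100%. Such values, with an allele at 0 or alleles in a ratio of small whole numbers, occurred in 526 of the 5960 genes with shares. Outside them, Akr1c21 had the largest fall (90.8 to 18.3%) and Naa11 the largest rise (20.1 to 70.5%). Pou5f1 was listed at 0% and 0.116% paternal and Plk1 at 100% and 99.7%, also in the other columns, and these shares are not read as allelic.

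Of the 4 genes imprinted by H3K27me3 in the comparison, Sfmbt2 was at 100% in both stages while its total went from 0.644 to 8.17 FPKM, and Slc38a4 was at 100% and 99.1% while its total went from 15.2 to 37.96. Gab1 was at 98.9 and 84.2% and Xist at 99.5 and 93.6%, with 68.0% for Xist in control female morula. All 4 were listed as mostly paternal in both stages, but the morula total of Sfmbt2 was under the 1 FPKM set for shares. Impact, paternally expressed, was at 97.3 and 95.5%. Igf2r, which is maternally expressed later in development, was at 49.6% and 35.1%, with a total of 13.7 and 3.98 FPKM.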

How the data were processed

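Smart-seq2 libraries of mouse embryos were quantified by the authors. The deposited values were FPKM per gene and allele; per the submitters' processing notes, the tools were Trim Galore 0.6.4, HISAT2 2.2.0 and StringTie 2.1.1 on assembly mm9. The labels do not say how reads were assigned to alleles. In the stage and morula tables the authors merged the replicates of a group, with a maternal and a paternal column each; every level printed is such a merged value, with no SD, test or counting interval.

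From these, totals, log2 ratios with a pseudocount of 1 FPKM and paternal shares were computed; log2 ratios with a pseudocount understate changes of low genes. The 5 summary lines were left out. Chromosomes and gene order came from RefSeq GRCm38.p6 (23951 genes matched). The members and gene lists (36) were chosen with earlier results of these data known. Genes named were the 15 highest and 15 lowest ratios, members of the lists, the 10 largest share changes of X-linked and autosomal genes at 5 FPKM or more in each direction, and the highest X-linked shares. Scripts were tested on simulated data. Alternatives covered the pseudocount, the minimum, each allele alone, scaling and the reference morula column. Software was Python 3.11.15 with numpy 2.4.6, pandas 2.3.3 and matplotlib 3.10.9.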

Additional observations from a re-analysis of the deposited data

How the results depend on the processing

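No paired analysis was possible because the deposited columns pool the replicates, and leaving out a replicate could not be run for the same reason. With a pseudocount of 5 FPKM, 648 genes were 2-fold higher in the inner cell mass. Against both morula columns, an alternative chosen after seeing the data, 662 were higher and 224 lower. Autosomal genes whose share changed by 20 points numbered 533, and 295 and 149 with a minimum of 5 and 10 FPKM. X-linked genes lower by 20 points numbered 24 with a minimum of 10 FPKM. A higher minimum leaves fewer genes in these share counts. With the control female morulae as reference, the median autosomal share change turned to -0.0887 points, the stress list median to -0.18, Plk2 to a log2 ratio of -0.76, Uxt to -20.8 points and Gm5643 to -7.63 points. For these the cause was not tested. Of 129 list genes past 2-fold, 66 stayed so against the control female morulae and 17 changed sign, among them Cdk1, Ccna2, Mt1 and Ldha. The median X-linked share change lay between -10.6 and -13.2 points under every alternative run. Leaving out genes with an allele at 0 or a simple allele ratio, also chosen after seeing the data, gave -11.3 points and 34 genes lower by 20. Depth is unknown, so counting error is not part of any value.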

Other observations

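Gene families outside the fixed lists, chosen after their values were seen, add to the description. Over all genes, 18.0% were 2-fold higher and 10.1% lower, and 10.8% and 3.66% were so against both morula columns. Of 24 genes of fatty acid oxidation, 13 were 2-fold higher in the inner cell mass and 1 was lower (median log2 ratio 1.21, against 0.14 over all genes), and 8 were past 2-fold above both morula columns. Ech1, an enoyl-CoA isomerase, was at 2.05 FPKM in morula, 6.35 in control female morula, 54.2 in the inner cell mass and 75.2 in trophectoderm. Acaa2, the mitochondrial thiolase, was at 17.5, 54.1, 120 and 107 FPKM. The carnitine carrier Slc22a5 was at 0.274 FPKM in morula, 25.4 in the inner cell mass and 173 in trophectoderm. Of 16 genes of the tricarboxylic acid cycle, 5 were higher and none lower, among them Fh1 (20.1 to 62.8 FPKM) and Suclg2 (40.7 to 109). All 3 Trim43 genes were lower against both morula columns, and Trim43a, the most abundant, went from 1025 FPKM in morula and 483 in control female morula to 186. Mitochondrial import genes were lower in 6 of 18 cases and higher in none, though none was past 2-fold below both morula columns. Histone genes were higher in 24 of 31 cases, and 13 were so against both morula columns. Their copies are nearly identical and most lack a poly(A) tail, so their values are uncertain in these libraries.

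Genes that stood farthest above both morula columns, ranked by the smaller of the ratios, also included Morc1 (0.429 FPKM in morula, 0.544 in control female morula, 26.1 in the inner cell mass), which is known for silencing transposons in the germ line, and Tcl1, a coactivator of the Akt kinase (0.941, 1.38 and 29.3 FPKM). The X-linked Timp1, an inhibitor of matrix proteases, was at 1.83, 1.55 and 39.3 FPKM, and 0.743 in trophectoderm. Among those farthest below both were the X-linked Magea8 (14.2, 13.9 and 0.0860 FPKM) and Magea5 (24.2, 30.3 and 1.07).

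The 22 genes that reached 5 FPKM in the inner cell mass and were listed at 0 in morula have no ratio. Bmp4, a signalling ligand, was listed at 36.3 FPKM in the inner cell mass and at 0 in 8-cell embryos, both morula columns and trophectoderm, with a paternal share of 47.5%. Fgf10 (16.8 FPKM) showed the same pattern, and Hesx1, a repressor of epiblast cells, was at 13.4 FPKM. A listing at 0 can also be a failed estimate: the ribosomal protein gene Rpl29 was listed at 458 FPKM in morula and 379 in trophectoderm but at 0 in the inner cell mass.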
